A study of Myzus persicae with 8 samples.

Results

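Membrane alanyl aminopeptidase N was represented on the Myzus persicae array by contig3299, with probes a and b, and by contig5268, with probe a. These 3 probes of 2 contigs were among 14628 probes for 10489 contigs (assembled transcript sequences). Both contigs were chosen by their description, a best BLAST hit, in a supplementary list of contigs raised by insecticide in the sensitive genotype. Neither is in the supplementary lists for the other genotypes, although the study's discussion also names both among the peptidase contigs regulated in genotype SR. The log2 ratios of insecticide over water in the sensitive genotype, with thresholds of 1 and an unadjusted P of 0.05, therefore selected the members, and these ratios are described without a test. The closest hit of contig5268 was the membrane alanyl aminopeptidase N of the pea aphid, and that of contig3299 was a partial predicted pea aphid protein, so the names rest on similarity alone.

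Aminopeptidase N is a zinc exopeptidase held at the cell surface that removes single amino acids from the amino end of peptides. In insects it is best known from the apical membrane of midgut cells, where it completes the digestion of peptides, and in caterpillars it is a receptor of Bacillus thuringiensis Cry toxins. In the pea aphid it is an abundant gut surface protein that binds plant lectins and the coat protein of a plant virus taken up from the gut.

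The study asked how aphid genotypes with different target-site resistance answer a carbamate insecticide, pirimicarb, which inhibits acetylcholinesterase. Genotype S carried neither resistance mutation, genotype SR was heterozygous for kdr (a sodium channel mutation), and genotype MR was heterozygous for kdr and for MACE (an altered acetylcholinesterase). Each genotype was 1 clonal lineage kept on pepper, so genotype and lineage cannot be told apart. Wingless adults 7 days old were sprayed with 1 ml of pirimicarb at 20 ppm in acetone plus water, or with the control spray, which the study's methods call water and the sample labels acetone plus water. If the control held no acetone, its effect and that of pirimicarb cannot be told apart. Each extract held RNA of about 40 whole aphids that were alive after 24 hours. In the study's bioassay, which used dipped leaves and a later endpoint, the median lethal concentration was below 20 ppm for S and SR and far above it for MR. Differences between survivors and the rest, and changes within aphids, therefore cannot be told apart. In whole aphids, fewer cells of a type and less RNA per cell cannot be told apart.

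Each of the 8 arrays was a 2-colour hybridization of insecticide-treated against water-treated RNA of the same genotype. Cy5 marked the insecticide-treated RNA of every replicate A and of S replicate C, whereas Cy3 marked that of every replicate B. One MR array was described by its submitters as a technical repeat of replicate A, although its title gives its water-treated RNA another letter, and it was averaged with the other array of that replicate. The replicates were thus 3 for S, 2 for SR and 2 for MR, whereas the study's methods count every MR array as a biological replicate. S replicate A has the genotype SR in 1 of its labels and S in the others, and it was used as S. All arrays lay on 1 slide with 1 scan stamp, 0 spots were saturated, and both channels were well above background for 87.1% to 93.4% of the features of an array. Over all probes, the ratios of MR replicates A and B correlated at -0.55, whereas both arrays of MR replicate A correlated at 0.98. The dyes are stated in the labels, so the direction of these arrays was kept as labelled. A wrong dye label on an MR replicate would exchange its channels and turn its ratios, and whether one is wrong was not tested. Before turning by dye, the Cy5 over Cy3 ratios of MR replicates A and B correlated at 0.55. The SR replicates correlated at 0.08 and those of S at 0.29 to 0.48.

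In S, the aminopeptidase N contigs were about doubled after pirimicarb in every replicate. The log2 ratio of contig3299 was 1.44 in replicate A, 0.85 in replicate B and 0.82 in replicate C, and its mean was 1.04 ± 0.35 (SD, n = 3), a 2.06-fold higher signal. That of contig5268 was 1.33 in replicate A, 0.98 in replicate B and 1.36 in replicate C, with a mean of 1.22 ± 0.21 (SD, n = 3) or 2.34-fold. All 6 of these values were positive. Contig3299 thus lay just inside the selecting threshold, with means of 1.04 for probe a and 1.04 for probe b, while a pair of its single arrays lay below it. All 3 probes passed both thresholds in S, where 1.71% of all probes did so upwards, and nothing is read from this count because the same contrast chose them.

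In SR, the ratios of both contigs were close to 0. Contig3299 had a log2 ratio of 0.01 in replicate A and 0.42 in replicate B, with a mean of 0.21 ± 0.29 (SD, n = 2). Contig5268 had -0.20 in replicate A and 0.52 in replicate B, with a mean of 0.16 ± 0.51 (SD, n = 2). Replicate B was the higher for both contigs, and no SR value reached the lowest S value of the same contig, a comparison that is described only. Of the 3 probes, 0 passed the thresholds in SR, against 1.11% of all probes in either direction, and their limma adjusted p was 0.9998. With so few replicates the fit called no probe of the array at an adjusted p under 0.05, although 296 probes had an unadjusted P under 0.05. Taking S replicate A as SR, as 1 label has it, moved the SR mean to 0.62 for contig3299 and 0.55 for contig5268, again with 0 probes past the thresholds.

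In MR, each contig was negative in replicate A and positive in replicate B, as were 39.6% of all contigs. In replicate A the water signal far exceeded the insecticide signal, with log2 ratios of -2.33 and -2.32 for contig3299 on its arrays, a 5.01-fold lower signal after pirimicarb. Contig5268 gave -2.55 and -2.57 on the same arrays, or 5.90-fold lower. In replicate B, contig3299 had a log2 ratio of 0.56 and contig5268 of 0.45, or 1.47-fold and 1.37-fold higher signals. The means were -0.88 ± 2.04 for contig3299 and -1.05 ± 2.13 for contig5268 (SD, n = 2), so the spread between replicates exceeded either mean. Of the 3 probes, 0 passed the thresholds in MR, where 0.636% of all probes did, and their limma adjusted p was 1. The fit called 0 probes at an adjusted p under 0.05 and 93 at an unadjusted P under 0.05.

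The MR mean therefore depends on which replicate is used. Without replicate A the MR values were 0.56 for contig3299 and 0.45 for contig5268, with 0 probes past the thresholds. Without replicate B they were -2.33 and -2.56 in a fit of all remaining replicates, which assumes that the lone MR sample varies like the other groups, and both contigs then passed the thresholds at a lowest adjusted p of 0.1961. The replicates also differ in dye. Read as Cy5 over Cy3, contig3299 was negative in both, at -2.33 and -2.32 on the arrays of replicate A and -0.56 in replicate B, and contig5268 likewise at -2.55, -2.57 and -0.45. In S the same reading changed sign with the dye, since contig3299 had 1.44 and 0.82 where the insecticide-treated RNA carried Cy5 and -0.85 where it carried Cy3. The part of the dye or of the replicate in the MR values was not tested.

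**Figure D1:**
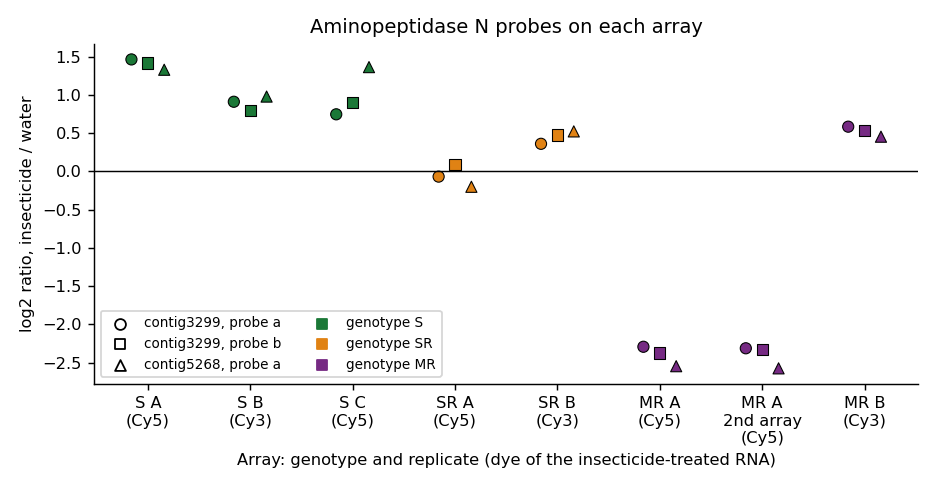
Log2 ratio of insecticide over water (y axis) of each aminopeptidase N probe (symbol) on each of the 8 arrays (x axis, with the dye of the insecticide-treated RNA), coloured by genotype. The S points lie between 0.75 and 1.46, the SR points between -0.20 and 0.52, and the MR points between -2.57 and -2.29 on both arrays of replicate A but between 0.45 and 0.59 in replicate B.

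The 3 probes agreed closely on each array. Probes a and b of contig3299 differed by at most 0.16 in log2 ratio on any of the 8 arrays, and contig3299 and contig5268 by at most 0.54. Over the 7 replicates the ratios of the contigs correlated at r = 0.98, and at 0.90 over the 6 without MR replicate A, a description only, since both were measured on the same arrays and chosen on the same contrast. On both arrays of MR replicate A the 3 probes lay between percentiles 0.32 and 0.42 of all probes, near the bottom of the array. In MR replicate B they lay between percentiles 82.3 and 88.9, in SR replicate B between 92.6 and 97.4, and in SR replicate A between 33.3 and 61.7. The SR replicate B ratios, though below 0.53, were thus among the higher ones of an array whose ratios had an SD of 0.28 over all probes. In S the percentiles were 92.8 to 98.7, which the choice of members fixes in part.

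In the unprocessed spot signals, which are not corrected for the brightness of the dyes, Cy3 was the brighter channel in both MR replicates. On the first array of MR replicate A, probe a of contig3299 had a median signal of 17429 in the water channel and 2369 in the insecticide channel. Probe b had 7710 and 832, and the probe of contig5268 had 4196.5 and 363.5, against local backgrounds of 54.5 to 64. In MR replicate B the insecticide channel, then Cy3, was the brighter, with 14430 against 4749 for probe a of contig3299 and 2748 against 829 for contig5268. For that probe a, the normalized log2 ratio there was 0.59. In SR replicate B it had 11972 in the Cy3 insecticide channel against 4293, at a log2 ratio of 0.36. Its Cy3 signal was the brighter on every array except those of S replicates A and C. The unprocessed gap is therefore no separate measure of the ratio. The dimmest values came from S replicate A and SR replicate A. In the water channel of S replicate A, probe b of contig3299 (173.5) and the probe of contig5268 (96) were not well above background. In the insecticide channel of SR replicate A, the probe of contig5268 (140) was not well above background. Contig5268 was thus well above background in water on 2 of 3 S arrays and after insecticide on 1 of 2 SR arrays, and its ratios in those replicates rest on a dim spot.

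The ratio joins a pair of levels, so each channel was also followed on its own, as log2 intensity after scaling between arrays. After pirimicarb, the mean levels of the genotypes lay closer together than in water, as the arrays are labelled. Readings with exchanged channels or without single replicates, given with these levels, were chosen after seeing the data. For contig3299, the level after insecticide averaged 11.27 ± 0.85 in S (SD, n = 3), 11.34 ± 1.37 in SR and 11.37 ± 1.11 in MR (SD, n = 2 each), so the genotype means spanned 0.09. For contig5268 the levels after insecticide were 9.59 ± 0.98 in S, 9.31 ± 2.13 in SR and 9.46 ± 1.05 in MR, a span of 0.28. Every one of these differences was smaller than the SD within a genotype. With the channels of MR replicate A exchanged, the spans were 1.26 and 1.43, wider than the 0.90 and 0.87 then found in water. With those of MR replicate B exchanged instead, the spans after insecticide were 0.26 and 0.36. The scales of contig3299 and contig5268 come from different probes and are not compared with each other.

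In water-treated aphids the order of the means, as the arrays are labelled, was S, SR and MR for both contigs. The log2 water level of contig3299 was 8.86, 10.84 and 11.01 in S replicates A, B and C, 10.36 and 11.90 in SR replicates A and B, and 12.91 and 11.59 in MR replicates A and B. The means were 10.24 ± 1.20 in S, 11.13 ± 1.08 in SR and 12.25 ± 0.93 in MR. Contig5268 had 7.12, 9.14 and 8.82 in S, 8.01 and 10.29 in SR, and 11.28 and 9.74 in MR, with means of 8.36 ± 1.09, 9.15 ± 1.61 and 10.51 ± 1.08. The neighbours in this order, S and SR as well as SR and MR, overlapped for both contigs. With the channels of MR replicate A exchanged, the MR mean was 11.09 for contig3299, below SR, and 9.23 for contig5268, close to SR. With those of MR replicate B exchanged instead, the MR means were 12.53 and 10.74, above SR. As labelled, MR lay above S in every replicate, with mean water levels 4.05-fold higher for contig3299 and 4.44-fold higher for contig5268. Without MR replicate A these values were 2.56-fold and 2.61-fold, and without S replicate A, where water spots were dim, 2.51-fold and 2.88-fold, still with no overlap. Without MR replicate B they were 6.39-fold and 7.54-fold. With the channels of MR replicate A exchanged they were 1.81-fold and 1.83-fold, and MR then overlapped S for both contigs. With those of MR replicate B exchanged instead, they were 4.91-fold and 5.19-fold, without overlap. These differences from S are described without a test, since the water channel of the S arrays took part in choosing the contigs.

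The difference between SR and MR in water, which the choice did not use, was within the spread between replicates. As labelled, SR was lower than MR by a log2 value of -1.12 for contig3299 and -1.36 for contig5268. In the limma fit of all 7 replicates the adjusted p of the 3 probes was 0.9273, and 0 of 3 passed the thresholds, against 0.759% of all probes. The exact two-sided permutation test gave p = 0.6667 for each contig, and 2 against 2 replicates cannot give less than 0.3333. Without scaling between arrays the SR minus MR values were -1.70 and -1.89, and with S replicate A taken as SR they were -1.88 and -2.04, in each case with 0 probes past the thresholds. Without SR replicate A they were -0.35 for contig3299 and -0.22 for contig5268. With the channels of MR replicate A exchanged, SR and MR were nearly level. Their water means were then 11.13 and 11.09 for contig3299, and 9.15 and 9.23 for contig5268. With those of MR replicate B exchanged instead, the MR means were 12.53 and 10.74. The exchanged readings of SR against MR in water were not tested.

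The SR and MR ratios did not differ beyond replicate error either. The SR minus MR difference in log2 ratio was 1.10 for contig3299 and 1.21 for contig5268, with standard errors of 0.84 to 0.88 for the probes. The limma adjusted p was 0.9999, and 0 of 3 probes passed the thresholds, against 1.33% of all probes. The exact two-sided permutation p was 1 for contig3299 and 0.6667 for contig5268, with the same smallest possible value of 0.3333. Without MR replicate A the difference turned to -0.34 and -0.29, and without MR replicate B it rose to 2.54 and 2.72, past the thresholds for both contigs at a lowest adjusted p of 0.3144.

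As the arrays are labelled, the level after insecticide moved with the replicate letter, and the level in water did not do so in MR, where replicate A was the higher. After insecticide, replicate A, labelled with Cy5, was the lowest replicate of each genotype for both contigs. For contig3299 those values were 10.30 in S, 10.37 in SR and 10.58 in MR, a span of 0.29. Those of contig5268 were 8.45, 7.81 and 8.72, a wider span of 0.91. In water of the same replicates, labelled with Cy3, contig3299 spanned 4.05, from 8.86 in S to 12.91 in MR, and contig5268 spanned 4.16. In replicate B the spans of contig3299 were 0.62 after insecticide and 1.06 in water, where SR at 11.90 exceeded MR at 11.59. The water order S, SR and MR therefore held within replicate A and did not hold between SR and MR within replicate B, for contig5268 as well. Letter and dye coincide in replicates A and B and cannot be told apart there. S replicate C, whose insecticide-treated RNA also carried Cy5, had the highest level of S after insecticide, at 11.83 for contig3299 and 10.19 for contig5268. With the channels of MR replicate A exchanged, the pattern in MR turned for both contigs. For contig3299, replicate A then stood at 12.91 after insecticide and 10.58 in water, against 12.15 and 11.59 in replicate B. With the channels of MR replicate B exchanged instead, the pattern in MR held.

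**Figure D2:**
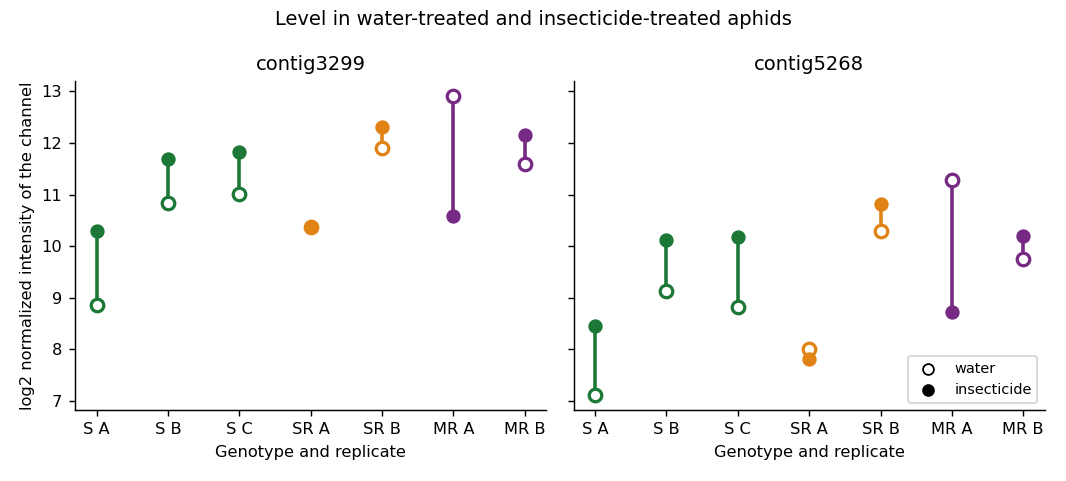
Log2 normalized intensity (y axis) of contig3299 (left) and contig5268 (right) in the water channel (open circles) and the insecticide channel (filled circles) of each replicate (x axis), coloured by genotype, with a line joining both channels of a replicate. The longest line is that of MR replicate A, where water stands at 12.91 and insecticide at 10.58 for contig3299, and the S lines all run upwards from water to insecticide.

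Set against all contigs, the aminopeptidase N contigs varied widely. The water level of contig3299 ranged over 4.05 log2 units across the 7 replicates, from 8.86 to 12.91, and that of contig5268 over 4.16, whereas the median contig ranged over 0.90. Smaller water ranges were found in 99.0% of contigs for contig3299 and 99.1% for contig5268. With the channels of MR replicate A exchanged, the water ranges were 3.04 and 3.17, against 0.72 for the median contig, and 98.0% and 98.5% of contigs ranged less. Without S replicate A they were 2.55 and 3.27, with 96.6% and 98.6% of contigs ranging less. After insecticide the ranges were 2.02 and 3.01, against 0.80 for the median contig, with 93.5% and 98.4% of contigs ranging less. As labelled, the members thus ranged less after insecticide than in water. The S replicates, which chose the contigs, contribute to these ranges, and they are a description.

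Other peptidases of the same supplementary table were followed beside aminopeptidase N. They comprised 6 cathepsin B contigs (lysosomal cysteine peptidases that in aphids also act in the gut), legumain (a cysteine endopeptidase cutting after asparagine), a signal peptide peptidase (an aspartic peptidase inside membranes) and an m41 ftsh metalloprotease (of the family of membrane-bound mitochondrial peptidases). All but the cathepsin B contig6891 were listed for their rise in S, and contig6891 with contig256 and contig3002 for a rise in SR, so those values are not independent evidence. In MR, 7 of these 9 contigs fell by the thresholds, against 61 of 10489 contigs in all, although their lowest adjusted p was 0.5057. Those 7 were the cathepsin B contigs and legumain, and each was negative in both MR replicates. In the study, contig254 and contig256 share a best hit, as do contig3002, contig3004 and contig6891. The count is thus of contigs, which are not established as separate genes. The cathepsin B contig256 had -4.60 in MR replicate A and -2.20 in replicate B, and contig254 had -3.98 and -2.51. Contig6594 had -3.51 and -2.42, and contig3004 had -3.45 and -2.09. Contig3002 had -3.12 and -1.19, and contig6891 had -2.75 and -1.19. The values were lower in replicate A for each of them. Legumain, contig2404, had -2.92 and -1.51. In MR replicate B these cathepsins and legumain ranged from -2.51 to -1.19, while aminopeptidase N was positive there.

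The remaining 2 of the 9 peptidases were negative in MR replicate A and positive in replicate B, as aminopeptidase N was. Of all contigs, 39.6% had these signs. The signal peptide peptidase, contig7762, had -1.39 in MR replicate A and 0.81 in replicate B, and the m41 ftsh metalloprotease, contig1733, had -1.51 and 0.93. In SR their means were -0.06 ± 0.41 and 0.09 ± 0.44 (SD, n = 2). In contrast, the cathepsin B contigs and legumain were positive in both SR replicates, with means of 0.76 to 1.19, and contig256 and contig3002 passed the thresholds there with higher ratios, against 18 of 10489 contigs. The lowest limma adjusted p of contig256 and contig3002 in SR was 0.9998. For SR minus MR, the same 7 contigs passed the thresholds with higher ratios in SR, against 72 of 10489 contigs in that direction. No peptidase passed them for the water level, where the median SR minus MR difference of the list was -2.20.

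Genes of amino acid handling, the products of peptide digestion, mostly had opposite signs in the MR replicates too. Of 9 such contigs, 8 were negative in MR replicate A and positive in replicate B, as were 39.6% of all contigs, and 0 passed the thresholds in SR or MR. Asparagine synthetase and threonine dehydratase have more than 1 contig each, which are not established as separate genes. The lowest MR mean of the list was that of asparagine synthetase, contig6679, which makes asparagine from aspartate, with -2.18 and 0.54 in MR replicates A and B. The highest was that of a threonine dehydratase, contig427, which breaks down threonine, with -0.998 and 1.41. The exception in sign, named after its values were seen, was pyrroline-5-carboxylate reductase, contig395, the last enzyme of proline synthesis, with 0.05 and -0.37. In SR, contig427 had 2.68 in replicate A and -0.24 in replicate B, and asparagine synthetase contig6679 had 2.56 and -0.53.

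Enzymes of sugar digestion were split. A salivary maltase, contig8379, had the highest MR mean, with -1.78 in replicate A and 0.63 in replicate B. Sucrase, contig10020, which breaks down dietary sucrose and is named after its values were seen, had -2.60 and 0.55, close to the values of aminopeptidase N. The 4 alpha-glucosidase contigs, which release glucose from sugars, were negative in both MR replicates, and contig3806 and contig8554 fell by the thresholds, as did 61 of 10489 contigs, at log2 means of -2.68 ± 0.18 and -3.08 ± 0.32 (SD, n = 2). The lowest limma adjusted p in MR was 0.5057 for contig3806 and 0.4126 for contig8554. Of the 6 contigs, 1 passed the thresholds in SR with a higher ratio, contig8554, against 18 of 10489 contigs, at a limma adjusted p of 0.9998.

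**Figure D3:**
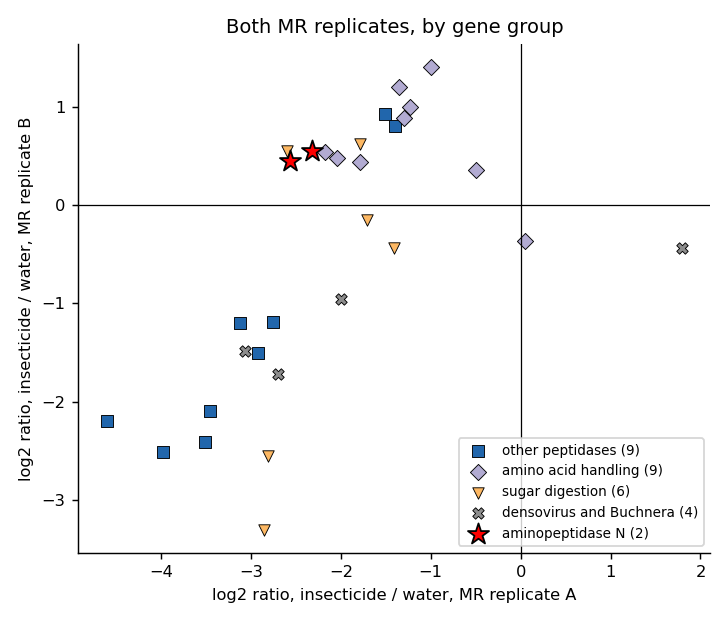
Log2 ratio of insecticide over water in MR replicate A (x axis) against MR replicate B (y axis) for the aminopeptidase N contigs (stars) and the contigs of the other gene groups (symbols, with the number of contigs in brackets). Aminopeptidase N lies in the upper left quadrant at -2.33 and 0.56 and at -2.56 and 0.45, with most amino acid handling contigs, while the cathepsin B contigs and legumain lie in the lower left.

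Low ratios in MR replicate A were common in these groups. All 9 other peptidases, all 6 sugar digestion contigs and 6 of 9 amino acid handling contigs were below -1 there, as were 7.98% of all contigs. These lists were drawn, like the members, from contigs listed as raised by insecticide, mostly in S. Over all probes, the ratios of MR replicate A correlated at -0.47, -0.46 and -0.01 with S replicates A, B and C. All contigs are therefore not a like background for these lists, here or in their other MR counts. Contigs of other organisms in the aphids also moved between samples. The 3 densovirus contigs (an insect parvovirus) fell by the thresholds in MR, against 61 of 10489 contigs, at means of -2.27, -2.21 and -1.48, and were negative in both MR replicates. Their lowest limma adjusted p was 0.8837. One of them, contig3321, passed the thresholds in SR with a higher ratio, as did the Buchnera contig9124, against 18 of 10489 contigs, and both were listed for SR by the study. The limma adjusted p of both in SR was 0.9998. The water level of contig3321 was lower in SR than in MR past the thresholds, against 38 of 10489 contigs. The contig9124 of Buchnera, the bacterial symbiont that supplies amino acids to aphids, had 1.79 in MR replicate A and -0.43 in replicate B. In S it had -1.55 in replicate A and -0.07 in replicate B, with no value in replicate C. The part of virus or symbiont in the aminopeptidase N values was not tested.

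The contigs whose ratios ran most like those of aminopeptidase N were found by Pearson correlation over the 7 replicates among 8342 contigs well above background in both channels on all arrays. For contig3299 they were contig6930 (r = 0.99), contig3298 (0.99), contig8670 (0.99), contig7489 (0.98) and contig7335 (0.98). For contig5268 they were contig5222 (0.99), contig5364 (0.98), contig6993 (0.98), contig6080 (0.98) and contig6930 (0.97). None has a description in the sources used here. Their ratios were smaller in size than those of aminopeptidase N in MR replicate A, from -1.80 for contig6993 to -1.13 for contig5222, and contig6930 had -1.56 there and 0.63 in MR replicate B. The other aminopeptidase N contig, at r = 0.98, was surpassed by 3 contigs for contig3299 and by 1 for contig5268. The profile was not rare, with r above 0.9 for 404 contigs (4.84%) with contig3299 and for 221 contigs (2.65%) with contig5268. MR replicate A is the point farthest from the others, and without it the r of these contigs was 0.89 to 0.95 with contig3299 and 0.83 to 0.95 with contig5268. The correlations share arrays and carry no P value.

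**Figure D4:**
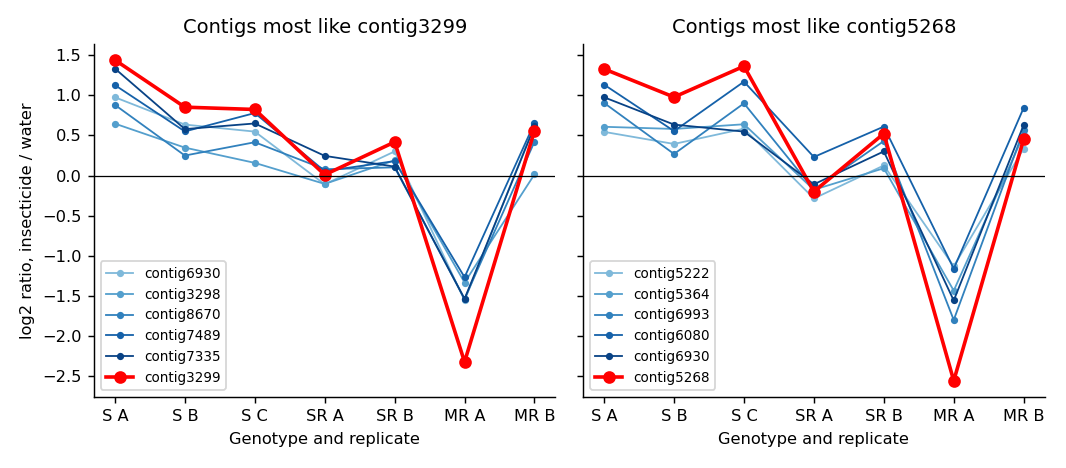
Log2 ratio of insecticide over water (y axis) in each of the 7 replicates (x axis, whose order has no meaning) for contig3299 (left, red) and contig5268 (right, red) with the 5 contigs most like each (blue). Every curve is lowest in MR replicate A, at -2.33 and -2.56 for the aminopeptidase N contigs and between -1.80 and -1.13 for the others.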

How the data were processed

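For each of the 8 arrays the authors deposited scanner output (Feature Extraction 10.1.1.1), in which the median signal and local background of each spot are intensities on a linear scale, not normalized. Tables of the authors' own limma comparisons (fold changes and p-values) were not used. Background was corrected with normexp (offset 50), arrays were normalized by loess with 1116 control features at weight 0, outlier spots were left out, and each log2 ratio was signed by its dyes as insecticide over water. Channel levels were then scaled by Aquantile. Linear models (lmFit, eBayes; limma 3.58.1, R 4.3.3) were fitted per genotype, as in the study, or over all 7 replicates for SR against MR, with Benjamini-Hochberg adjustment over 14628 probes. A contig's value is the mean of its probes, and it passed when 1 probe or more had a log2 value past 1 in size at an unadjusted P under 0.05. The labels call the replicates biological, and each came from the same clonal lineage of its genotype. The fits were tested on simulated data. Figures were drawn with matplotlib 3.10.9 (Python 3.11.15).

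The named contigs were all probes of the members, lists drawn from the descriptions of a supplementary list, and the 5 contigs most like each member. Members and lists were chosen with earlier results of these data known. Alternatives covered background correction, normalization, filters, fits, the MR arrays, S replicate A and each replicate. The reference gene table (assembly MPER_G0061.0) matched 0 of 10489 contigs, so neither coordinates nor sequences are given. The number of arrays limits the precision.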

Additional observations from a re-analysis of the deposited data

How the results depend on the processing

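No alternative other than leaving out 1 replicate or turning the sign of an MR replicate changed the direction or the side of the thresholds of the SR ratio, the MR ratio, the SR minus MR difference in ratio or that in water level, for contig3299 or contig5268. The S ratio of contig5268 moved to 1.56 with plain background subtraction and to 1.71 with the scanner's processed signals. When each replicate was left out in turn, contig3299 and contig5268 ranged from 0.84 to 1.15 and 1.15 to 1.35 in S, 0.01 to 0.42 and -0.20 to 0.52 in SR, -2.33 to 0.56 and -2.56 to 0.45 in MR, -0.34 to 2.54 and -0.29 to 2.72 for SR minus MR in ratio, and -1.89 to -0.35 and -2.50 to -0.22 in water level. With the sign of MR replicate A turned, an alternative chosen after seeing the data, the MR ratio was 1.44 for contig3299 and 1.51 for contig5268, both past the thresholds, and SR minus MR was -1.23 and -1.35. With that of MR replicate B turned, the MR ratio was -1.44 and -1.51 and SR minus MR was 1.66 and 1.67, all past the thresholds. Taking the 3 MR arrays as 3 replicates gave MR ratios of -1.36 and -1.56. The replicate block changed no call. It left the SR minus MR ratio at 1.10 and 1.21, the SR ratio at 0.21 and 0.16, the MR ratio at -0.88 and -1.05 and the water difference at -1.12 and -1.36. These values could not move, since SR and MR each hold replicates A and B only, so they are no check of those results. The S ratio was 1.15 for each contig, which is the value without replicate C, because that replicate had its own term. The deviations of same-lettered samples correlated at 0.43 to 0.50 in ratio and 0.38 to 0.50 in water level between S and SR, but at -0.02 and -0.31 between SR and MR and at -0.37 to 0.03 and -0.53 to -0.17 between S and MR. Sprays of the genotypes ran in parallel, but no source ties a letter to a run, so pairing is not established. Only probe a of contig3299 was well above background in both channels on every array, so that filter gave no value for contig5268. Dim spots limit contig5268 most, in water of S replicate A and after insecticide of SR replicate A.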
